A study of Mus musculus with 6 samples.

Results

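The transcription factors of the oligodendrocyte lineage examined here were the 3 Olig proteins, 4 members of the Sox family and 2 Nkx homeodomain proteins, and their mRNA was followed in enterospheres of newborn mice during proliferation and early differentiation. The 9 genes (Olig1, Olig2, Olig3, Sox5, Sox6, Sox8, Sox9, Nkx2-2 and Nkx6-2) were chosen by name, and each had exactly 1 transcript cluster among the 19938 genes with a cluster of their own on the array. Enterospheres are free-floating spheroids that form when cells of the gut's muscle layers, with the nerve plexus between them, are dissociated and cultured with growth factors. All 6 samples came from neonatal C57BL/6 mice of no stated genotype other than the strain, with the gut of 3 mice pooled per sample by the labels, and 1 GeneChip Mouse Gene 1.0 ST array was hybridised per sample. In the proliferation group (3 arrays) the cultures stayed for 11 days in medium with EGF and FGF, at 10 and 20 ng/mL by the labels. In the differentiation group (3 arrays) they had 9 days of this medium and then 2 days in a medium that lacked both factors and contained ascorbic acid-2-phosphate, so factor withdrawal and ascorbate cannot be told apart. The methods name 2 pups of the same litter per experiment and EGF at 20 ng/mL instead.

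All values were log2 values after RMA, and a change is the mean of differentiation minus the mean of proliferation on that scale. A gene rose or fell where its p from limma, adjusted over all 35556 clusters, was under 0.05. By that rule 2.94% of all genes rose and 2.97% fell. Over all clusters 1459 were called. With a single array left out the number lay between 294 (without differentiation replicate 1) and 1297 (without proliferation replicate 1), so such fits called fewer clusters in general. The median change of all genes was 0.02, and the median of the cluster means was 6.15. The intervals given are 95% intervals from the same model. Sox10 and Ret, a factor and a receptor that define the enteric neural crest, were at 11.30 to 11.71 and 11.14 to 11.51 over the 6 arrays. Markers of fibroblasts were also strong, with list means between 10.67 and 11.29, whereas the means of the endothelial, macrophage and epithelial lists stayed between 4.95 and 5.95. In such bulk RNA fewer cells of a type and less RNA per cell cannot be told apart.

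In the brain and spinal cord, Olig2 specifies oligodendrocyte precursors, Nkx2-2 promotes their differentiation and Olig1 acts at maturation and myelination. Sox9, Sox8 and Sox10 form the SoxE group, whose members activate glial genes, with Sox9 acting early and Sox10 driving terminal differentiation. Sox5 and Sox6 form the SoxD group, lack an activation domain of their own and hold precursors back by competing with SoxE proteins. Nkx6-2 accompanies maturing oligodendrocytes, and Nkx2-2 represses its targets through Groucho corepressors. Enteric glia descend from the neural crest, depend on Sox10 and as a rule make no myelin.

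Of the 9 factors, Olig1 rose (2.94% of all genes did), Sox5 fell (2.97%) and 7 did not pass the test. In 6 of the 9 all arrays of one group lay above all arrays of the other, 4 with differentiation above and 2 with it below, where 27.5% of all genes were apart in one direction or the other. At an unadjusted p under 0.05 in limma, 3 factors were higher and 2 lower, where 19.1% of all genes had such a p (1893 genes higher and 1923 lower). The median change of the 9 was 0.12. The plot of the values on each array shows both directions and the unequal spread.

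**Figure D1:**
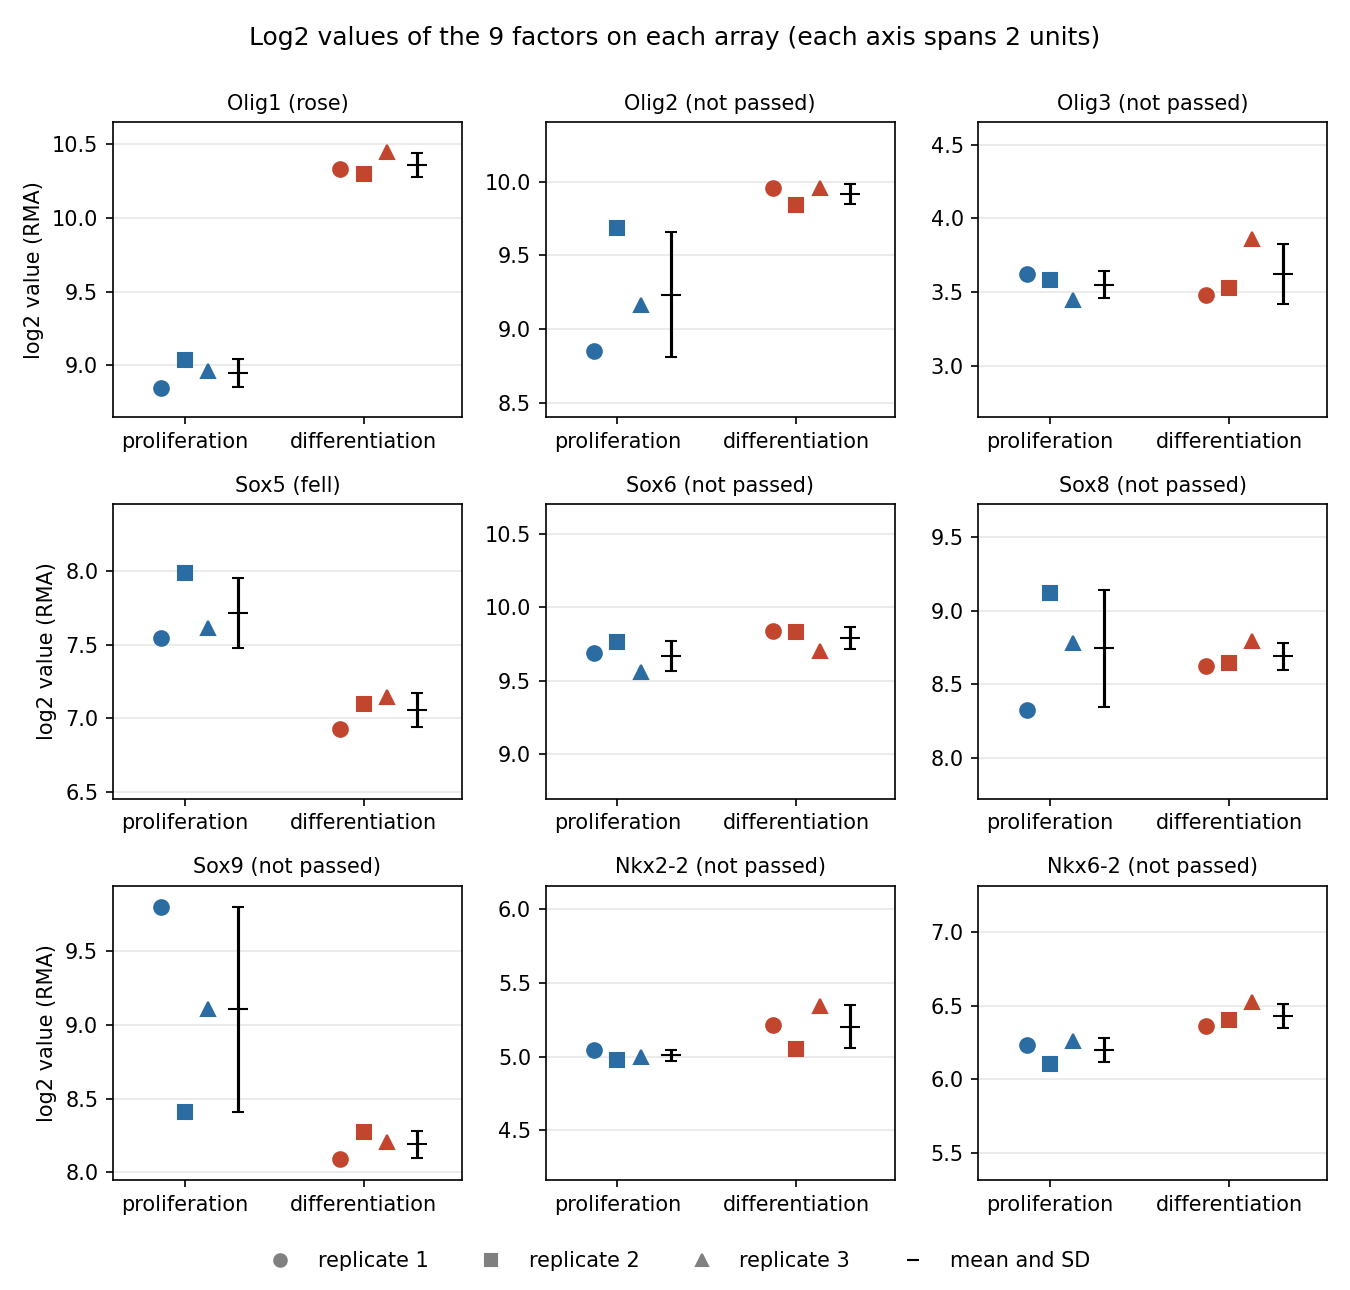
Log2 values of the 9 factors on the 3 proliferation (blue) and 3 differentiation arrays (red), with the replicate number as symbol and the mean and SD of each group in black. Each vertical axis spans 2 log2 units around that gene's own values, and levels are not comparable between genes. Olig1 is the factor with the widest gap between the groups, 1.26, and Sox9 the one with the widest scatter in proliferation.

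Olig1, which in the brain promotes the maturation of precursors into myelinating cells, was upregulated 2.66-fold in differentiating enterospheres. Its values were 8.85, 9.04 and 8.96 in proliferation replicates 1, 2 and 3 and 10.33, 10.30 and 10.45 in differentiation replicates 1, 2 and 3. No array of one group came near those of the other, and both groups were tight (8.95 ± 0.10 against 10.36 ± 0.08, SD, n = 3). The log2 change was 1.41 (standard error 0.090, interval 1.20 to 1.63, adjusted p = 0.00192 from limma). It passed the test under each of the 16 alternative settings, with changes between 1.36 and 1.46.

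Olig2 encodes the paralogue that specifies the lineage, and its gene lies next to Olig1 on chromosome 16, with no other protein-coding gene between them in the gene table of GRCm38.p6. Its values were 8.85, 9.69 and 9.16 in proliferation and 9.96, 9.84 and 9.96 in differentiation. The differentiation arrays were higher in each case but by only 0.15 at the closest, since proliferation replicate 2 was close to them. With a change of 0.68 (standard error 0.20, interval 0.20 to 1.17), Olig2 did not pass (adjusted p = 0.147). Without proliferation replicate 2 it passed, with a change of 0.91 (adjusted p = 0.0211), and without proliferation replicate 1 the change was 0.49 (adjusted p = 0.224). On each array the Olig1 value minus the Olig2 value lay between -0.65 and 0.00027 in proliferation and between 0.38 and 0.50 in differentiation. Its mean went from -0.28 to 0.45, a shift of 0.73 (standard error 0.20) with no overlap between groups. Its two-sided exact permutation p was 0.1, the lowest that 3 arrays against 3 allow, and 0.26 after adjustment over 13 such pairs. The gene on the other side of Olig1, the interferon receptor gene Ifnar2, had a change of 0.12 (adjusted p = 0.612).

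The start-site regions of Olig2 and Sox5 are shown because these are the neighbour of the factor that rose and the factor that fell. Each runs from 250 bases before to 50 after the annotated start, 5′ to 3′, taken from RefSeq on GRCm38.p6, chr16:91225300-91225599 on the plus strand for Olig2 and chr6:143947057-143947356 on the minus strand for Sox5. Capitals mark matches to the E-box CANNTG, the site type of Olig proteins, and to the Sox core motif ACAAT or its reverse complement ATTGT, both searched on both strands.
Olig2: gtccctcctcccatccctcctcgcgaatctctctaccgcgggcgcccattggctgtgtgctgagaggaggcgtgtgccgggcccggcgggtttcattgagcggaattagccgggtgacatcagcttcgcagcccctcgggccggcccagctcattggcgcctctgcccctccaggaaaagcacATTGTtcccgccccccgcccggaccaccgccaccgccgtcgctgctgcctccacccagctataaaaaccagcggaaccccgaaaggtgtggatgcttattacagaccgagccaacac
Sox5: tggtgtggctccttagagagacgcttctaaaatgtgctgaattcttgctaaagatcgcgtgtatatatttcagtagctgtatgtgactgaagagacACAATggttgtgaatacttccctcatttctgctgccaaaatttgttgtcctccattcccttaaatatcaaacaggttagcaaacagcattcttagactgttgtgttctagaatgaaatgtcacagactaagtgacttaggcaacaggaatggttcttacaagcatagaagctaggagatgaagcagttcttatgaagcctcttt
Each holds 1 Sox core match and no E-box of these letters. Over all 32851 RefSeq start-site regions, 31.0% held the Sox core and 72.3% an E-box. Entries existed for 7 of the 9 factors, not for Olig1 and Sox9. The Olig2 region is GC-rich (65.0%) and that of Sox5 is not (39.7%), beside a median of 52.7% over all regions.

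Olig3, known from dorsal progenitors of the spinal cord and hindbrain rather than from oligodendrocytes, stayed between 3.45 and 3.63 in proliferation and between 3.48 and 3.86 in differentiation. The groups overlapped, and the change was 0.07 (interval -0.22 to 0.36, adjusted p = 0.842). On all 6 arrays Olig3 was below 6.15, the middle of the cluster means, and whether its mRNA was above the array's background was not tested.

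Sox5, a SoxD protein that restrains precursor differentiation, fell 1.58-fold. It measured 7.55, 7.98 and 7.61 in proliferation and 6.93, 7.10 and 7.15 in differentiation. The groups were separated by 0.40, about as much as the 0.44 that the proliferation arrays spanned among themselves. The change was -0.66 (standard error 0.14, interval -0.98 to -0.33) at an adjusted p of 0.0493 from limma, just inside the threshold. The call was lost when any single array was left out (adjusted p from 0.0577 without proliferation replicate 1 to 0.203 without differentiation replicate 1). It was also lost with the replicate number as a block (adjusted p = 0.0815) and after cyclic loess (adjusted p = 0.0552). The direction stayed in each of these, with changes from -0.74 to -0.52.

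Sox6, a second SoxD protein, showed no such decrease. Its values of 9.69, 9.76 and 9.56 in proliferation overlapped those of 9.84, 9.83 and 9.70 in differentiation, and the change was 0.12 (interval -0.09 to 0.34, adjusted p = 0.607). The Sox5 value minus the Sox6 value went from a range of -2.14 to -1.78 in proliferation to one of -2.91 to -2.56 in differentiation. The shift of -0.78 (standard error 0.15) left no overlap between groups (exact permutation p = 0.1, adjusted p = 0.26). Sox6os, an RNA annotated across Sox6, changed by 0.11 (adjusted p = 0.588). Sox13, the remaining SoxD gene, rose by 0.45 (standard error 0.08, adjusted p = 0.0291), a call that was lost without any single array (adjusted p from 0.0535 without proliferation replicate 2 to 0.15 without differentiation replicate 1).

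Sox9, the SoxE protein of early glial and neural crest progenitors, which is also active in cartilage and other connective tissue, had the largest decrease in mean and the largest scatter among the 9, without passing the test. Its values were 9.80, 8.41 and 9.11 in proliferation and 8.09, 8.28 and 8.20 in differentiation. Each differentiation array lay below each proliferation array, but only by 0.13 at the closest. The change of -0.92 had a standard error of 0.32 (interval -1.67 to -0.16) and did not pass (adjusted p = 0.217). Without proliferation replicate 2 it passed, with a change of -1.27 (adjusted p = 0.0368), and without proliferation replicate 1 the change was -0.57 (adjusted p = 0.262). The 3 proliferation arrays spanned 1.39, wider than in 99.5% of all genes, whereas the differentiation arrays spanned 0.19, wider than in 45.5%.

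Sox8, which overlaps in function with its SoxE relatives, showed no detectable difference. It measured 8.33, 9.12 and 8.78 in proliferation and 8.62, 8.65 and 8.80 in differentiation. The differentiation arrays lay within the span of the proliferation arrays, and the change was -0.05 (standard error 0.19, interval -0.51 to 0.41, adjusted p = 0.931). The change was 0.13 without proliferation replicate 2 and -0.26 without proliferation replicate 1. Sox10, the third SoxE gene, was higher on each differentiation array (11.58, 11.71 and 11.68, after 11.33, 11.49 and 11.30) with a change of 0.28 that did not pass (interval 0.07 to 0.50, adjusted p = 0.179).

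Set against Sox10 on the same array, Olig1 stood apart in the upward and Sox5 and Sox9 in the downward direction. Olig1 minus Sox10 went from between -2.48 and -2.34 to between -1.41 and -1.23, a shift of 1.13 (standard error 0.072). For Sox5 the shift was -0.94 (standard error 0.087) and for Sox9 -1.20 (standard error 0.45). In these the groups did not overlap (exact permutation p = 0.1 each, adjusted p = 0.26). For the other 6 factors they did, with shifts between -0.34 and 0.40. How many of all genes would be apart when set against Sox10 was not counted. By their own values 27.5% of all genes were apart. Such shifts show unequal change within an array and not which of the paired genes moved.

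Nkx2-2, a homeodomain repressor that sets the timing of oligodendrocyte differentiation, measured 5.05, 4.98 and 5.00 in proliferation and 5.21, 5.06 and 5.34 in differentiation. The groups were apart by only 0.0065, and the values are below the median cluster mean. The change was 0.20 (interval -0.03 to 0.43, adjusted p = 0.408).

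Nkx6-2, found in maturing oligodendrocytes, measured 6.23, 6.11 and 6.26 and then 6.36, 6.40 and 6.52. Each differentiation array was higher, by 0.11 at the closest, and the change of 0.23 did not pass (interval 0.02 to 0.44, adjusted p = 0.259). The related Nkx6-1 had a change of -0.08 (adjusted p = 0.845). The difference between Nkx2-2 and Nkx6-2 on the same array shifted by -0.04 (standard error 0.073, exact permutation p = 0.7, adjusted p = 0.7).

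The order of the proliferation arrays in Sox9, Olig2 and Sox8 was shared by cell markers, as was noticed after the values had been seen. Olig2 and Sox8 were lowest in proliferation replicate 1 and highest in replicate 2, and Sox9 was the reverse. Of 6 fibroblast markers, 6 were highest in proliferation replicate 1, with list means of 11.29, 10.67 and 10.83 in replicates 1, 2 and 3. All 3 mesothelial markers were highest there too (list means 6.43, 5.72 and 5.85), against 48.1% of all genes. Of 12 markers of enteric neural crest and glia, 8 were highest in proliferation replicate 2 (list means 10.43, 10.69 and 10.60), against 29.7% of all genes. The order of the fibroblast means, highest in replicate 1 and lowest in replicate 2, was not particular to fibroblast and mesothelial markers. The means of the Schwann cell factors and the oligodendrocyte precursor genes (8.70, 8.61 and 8.68) had it too. So did those of the smooth muscle markers (7.212, 7.155 and 7.163) and, at low values, the macrophage markers. The mean of all genes was likewise highest in replicate 1 (7.04) and lowest in replicate 2 (6.97). Other lists, such as the epithelial and neuronal ones, had other orders. Of 7 epithelial markers, 6 were highest in proliferation replicate 1, with list means of 5.61, 5.43 and 5.34. Of 6 neuronal markers 5 were lowest in proliferation replicate 2 (list means 8.95, 8.68 and 9.13), as were 5 of 6 Schwann cell factors (list means 8.83, 8.58 and 8.68), although both cell types also descend from the neural crest. Between the groups, 0 of the 6 fibroblast markers passed, 0 had an unadjusted p under 0.05 in limma, and the differentiation means of 10.98 to 11.09 lay within the proliferation range. The part of the cell composition in the values of Sox9, Olig2 and Sox8 was not tested.

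**Figure D2:**
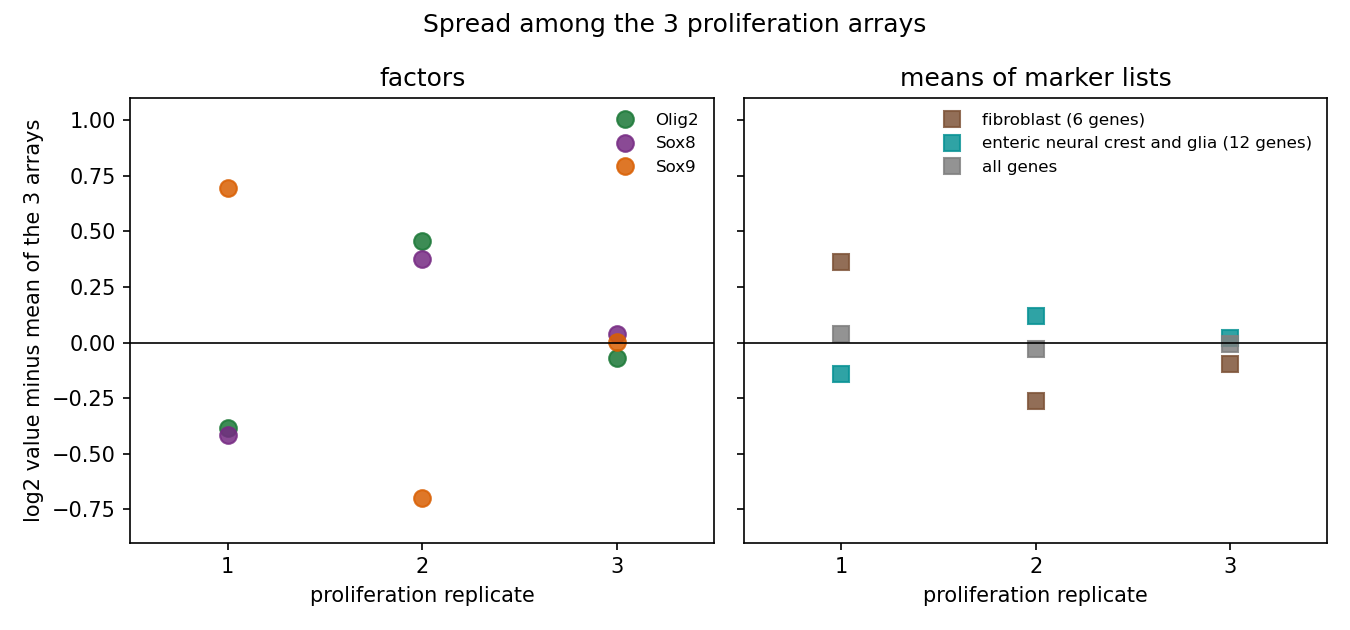
Deviation of each proliferation array from the mean of the 3, on the log2 scale, for Olig2, Sox8 and Sox9 (left) and for the mean over fibroblast markers, enteric crest and glia markers and all genes (right). Sox9 and the fibroblast mean are highest in replicate 1, where Olig2, Sox8 and the crest and glia mean are lowest.

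Among 18 measured factors that act beside these in the oligodendrocyte lineage, 2 rose, 0 fell and 16 did not pass. At an unadjusted p under 0.05 in limma, 8 were higher and 3 lower. With adjustment over clusters with 1 symbol alone, 4 rose and 1 fell, the added ones being Myrf, Zfp536 (change 0.57) and the Wnt effector Tcf7l2 (change -0.44). That setting raised calls in general: 960 of 21789 clusters rose and 1078 fell, against 693 and 766 of 35556. St18, a zinc finger protein related to the myelin factor Myt1, rose 2.47-fold, from 5.86, 6.03 and 5.91 to 7.32, 7.17 and 7.23, a step as clean as that of Olig1 (change 1.31, standard error 0.09, adjusted p = 0.00206). It passed with each array left out. Klf9, a Kruppel-like factor induced by thyroid hormone, rose by 0.67 (adjusted p = 0.0196), but not without proliferation replicate 2 or 3 nor without differentiation replicate 1 or 2 (the adjusted p lay between 0.0516 and 0.107). Myrf, the master regulator of myelin genes, measured 8.35, 6.95 and 7.53 in proliferation and 8.98, 9.02 and 8.85 in differentiation. Its change of 1.34 did not pass (standard error 0.32, adjusted p = 0.0809), and it passed without proliferation replicate 1 (adjusted p = 0.0115), while with another single array left out the adjusted p reached 0.256. Its proliferation arrays scattered as widely as those of Sox9 and had the same highest and lowest replicate.

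Partners and inhibitors of the factors numbered 14, of which 2 rose and 0 fell. At an unadjusted p under 0.05 in limma 6 were higher and 1 lower. With adjustment over clusters with 1 symbol alone, which called 2038 clusters in all instead of 1459, 4 rose, Id1 and Id2 being added. Id3, of the Id family that binds the partners of bHLH proteins such as Olig and keeps them from DNA, rose 2.10-fold (adjusted p = 0.00808). Its values went from 6.43, 6.83 and 6.86 to 7.76, 7.81 and 7.77, and it missed the threshold only without differentiation replicate 1 among the arrays (adjusted p = 0.0544). Id1 and Id2 had changes of 0.40 and 0.41 and Id4 one of -0.69, and these did not pass (adjusted p = 0.0579, 0.0765 and 0.295), though Id4 passed without proliferation replicate 1 (change -0.99, adjusted p = 0.0493). Without proliferation replicate 2 the change of Id4 was -0.40. Tle3, a Groucho corepressor of the kind that Nkx2-2 recruits, rose 1.71-fold from 10.17, 10.31 and 10.19 to 10.98, 11.01 and 11.02 (adjusted p = 0.00564), while Tle1, Tle2 and Tle4 had changes between -0.17 and -0.04 that did not pass. The E proteins Tcf3, Tcf4 and Tcf12, with which Olig proteins pair, had changes of -0.08, 0.20 and -0.19 (adjusted p from 0.231 to 0.729).

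**Figure D3:**
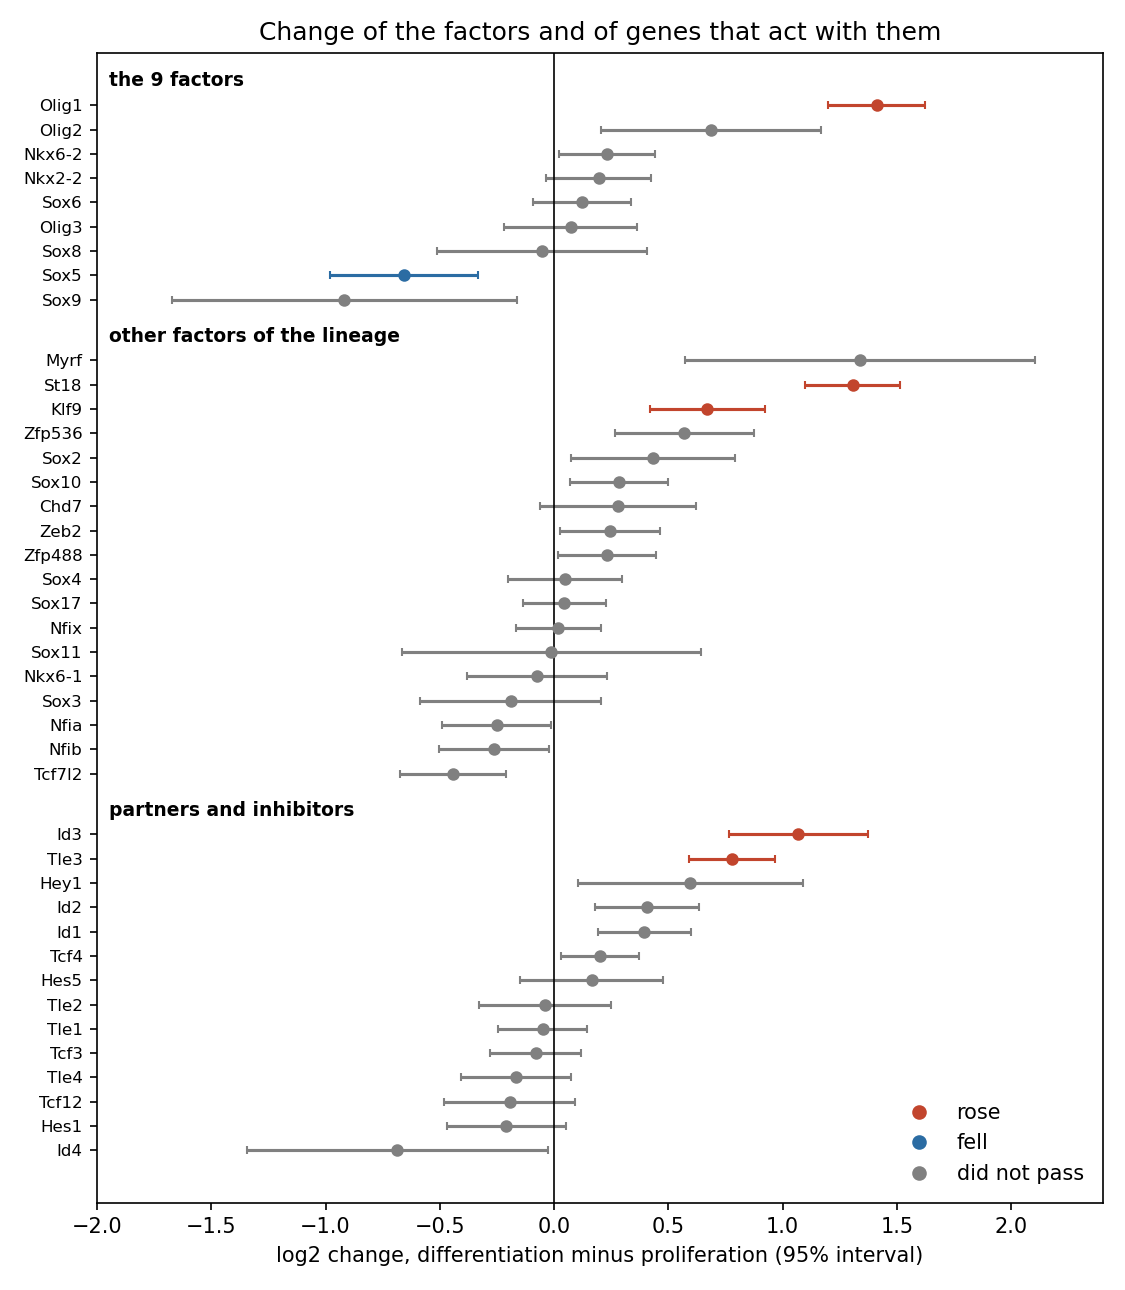
Log2 change, differentiation minus proliferation, with its 95% interval from limma, for the 9 factors, 18 other factors of the lineage and 14 partners and inhibitors. Red genes rose, blue ones fell and grey ones did not pass at an adjusted p of 0.05. Olig1 at 1.41 and Sox5 at -0.66 are the factors past the test, and the intervals of Sox9 and Myrf are the widest of their groups.

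In the Sox family outside the 4 members, 1 gene of 15 rose (Sox13, above), 0 fell and 14 did not pass, and at an unadjusted p under 0.05 in limma 3 were higher and 1 lower. Sox2, a factor of neural progenitors, had a change of 0.43 (adjusted p = 0.22). Sox4 and Sox11, of the SoxC group in immature neurons, had changes of 0.05 and -0.01 (adjusted p = 0.887 and 0.991).

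The list of oligodendrocyte precursor genes went both ways, but the gene in it that rose, Enpp6, is one of newly forming oligodendrocytes. The list held 13 genes, with a median change of -0.02, and 1 rose while 2 fell. At an unadjusted p under 0.05 in limma, 2 were higher (Enpp6 and Gal3st1, the latter by 0.44) and 3 lower (Cspg4, Ptprz1 and Lhfpl3). With adjustment over clusters with 1 symbol alone 1 rose and 3 fell, a setting that called 2038 clusters in all instead of 1459. The added gene was Ptprz1, a receptor phosphatase of precursors and other glia, which measured 10.85, 11.54 and 11.08 in proliferation and 10.36, 10.38 and 10.23 in differentiation. Its change of -0.83 missed the threshold (adjusted p = 0.0503) and passed under 10 of the 16 alternatives. Enpp6, an enzyme of newly forming oligodendrocytes, rose 6.23-fold, from 5.33, 5.71 and 5.59 to 8.29, 7.92 and 8.33 (change 2.64, standard error 0.15, adjusted p = 0.00134). Cspg4, which encodes the precursor proteoglycan NG2 and is also made by pericytes, fell 2.95-fold, from 10.36, 10.46 and 10.30 to 8.76, 8.82 and 8.86 (change -1.56, standard error 0.08, adjusted p = 0.00125). Both passed with each array left out. Lhfpl3 fell by 0.79 (adjusted p = 0.0404), a call that held among the left-out arrays only without proliferation replicate 1 and otherwise gave adjusted p from 0.0665 to 0.152. Gpr17, a receptor of committed precursors, had a change of -0.02 (adjusted p = 0.95), and Pdgfra, shared by precursors and fibroblasts, one of -0.15 (adjusted p = 0.805).

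Central myelin genes, on which several of the factors act, numbered 19, of which 8 rose, 2 fell and 9 did not pass. Opalin rose 39.2-fold from values of 4.58 to 4.90, below the median cluster mean, and Aspa and Cldn11 rose 4.97- and 3.77-fold (adjusted p = 1.61e-04, 0.00318 and 0.0132). Anln, which also encodes a protein of cell division, fell 4.06-fold (adjusted p = 0.00765). Trf, the other gene that fell, did so 2.70-fold (adjusted p = 0.00346) and passed with each array left out. Without differentiation replicate 1 the test was missed by Cldn11 and Anln (adjusted p = 0.0727 and 0.0512), Cldn11 also missed it without differentiation replicate 2 (adjusted p = 0.0514), and 3 genes of the list rose and 1 fell. Among 12 markers of enteric neural crest and glia, 3 rose, 2 fell and 7 did not pass. Entpd2, an ectonucleotidase of enteric glia, the filament gene Gfap and Ngfr, a neurotrophin receptor, rose by 1.32, 1.16 and 0.79, and Fabp7, a lipid-binding protein of glial progenitors, fell by 1.07 (adjusted p from 0.00764 to 0.0218). S100b, a calcium-binding protein of glia, was the other gene that fell. Without differentiation replicate 1 none of the list rose or fell (the unadjusted limma counts over all arrays were 7 higher and 3 lower), and without proliferation replicate 3 or differentiation replicate 3 the list had 2 that rose and 0 that fell. In these 3 fits the calls over all clusters dropped as well, from 1459 to 294, 480 and 850. Entpd2 and Ngfr missed the threshold without differentiation replicate 1 at adjusted p of 0.0522 and 0.0561. Gfap missed it without proliferation replicate 3 and without each differentiation replicate (adjusted p from 0.0608 to 0.0829). Without proliferation replicate 3 or differentiation replicate 1 or 3 it was missed by Fabp7 (0.0675 to 0.106) and S100b (0.0789 to 0.128). S100b also missed it without proliferation replicate 2 (adjusted p = 0.0547). Cartilage genes that Sox9 activates together with Sox5 and Sox6 numbered 11, of which 0 rose and 0 fell, with 0 higher and 1 lower at an unadjusted p under 0.05 in limma, the latter being Matn4 with a change of -0.63 (adjusted p = 0.0657). Matn4 passed without proliferation replicate 1 (adjusted p = 0.048) and with adjustment over clusters with 1 symbol alone (adjusted p = 0.0236).

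**Figure D4:**
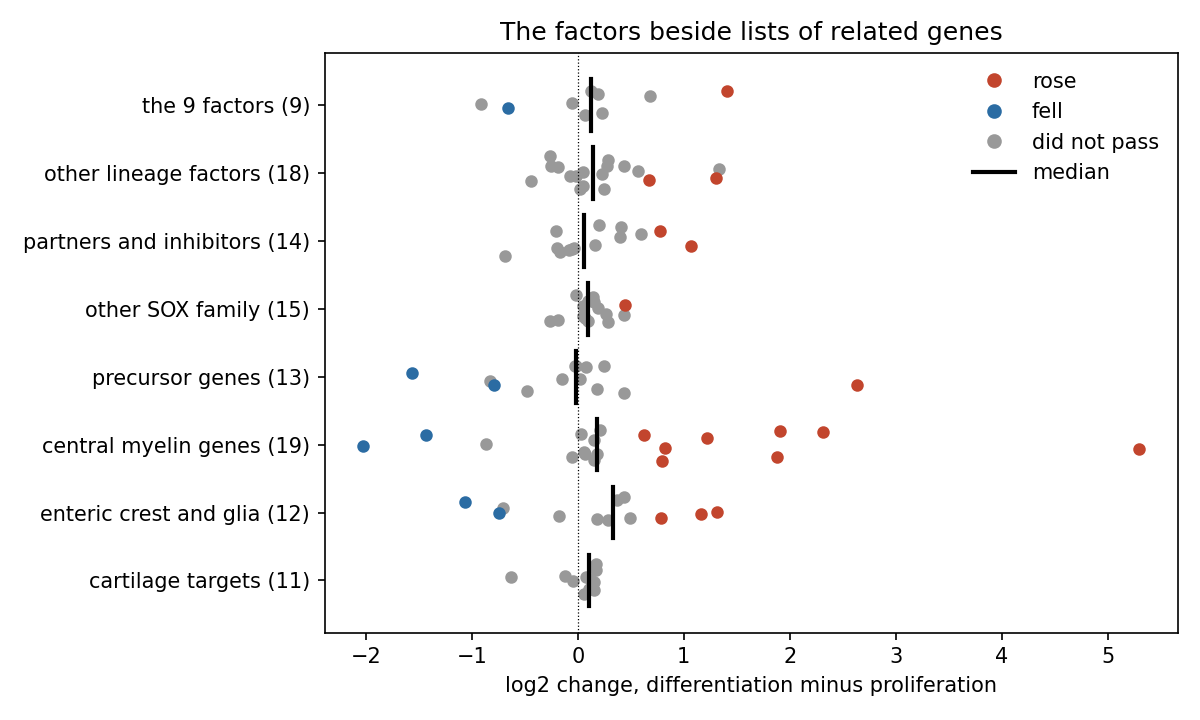
Log2 change of each gene, differentiation minus proliferation, by gene list, with the count of measured genes in brackets and a black bar at the list's median. Red points rose, blue points fell and grey points did not pass, and the vertical scatter carries no value. The 9 factors spread to both sides of 0, as the precursor genes do, and the point at 5.29 is Opalin.

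Of the protein-coding genes that flank the 9 factors, 15 that are not factors themselves were measured, and 2 rose, 0 fell and 13 did not pass, with changes of the latter between -0.37 and 0.22. Insc, beside Sox6, which encodes an adaptor of asymmetric cell division, rose by 1.51 (adjusted p = 0.00406) and kept its call with each array left out. Slc39a11, a zinc transporter gene beside Sox9, rose by 0.41 (adjusted p = 0.0457) and lost the call without any single array (adjusted p from 0.0985 to 0.16).

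Finally, the genes with the pattern most like those of the factors past the test were listed by the root mean square difference of their centred log2 values over the 6 arrays. For Olig1 these were Nfil3, a bZIP transcription factor, Notum, a secreted Wnt inhibitor, Tspan11, a tetraspanin, and Matn2, a matrix protein, at differences of 0.067, 0.069, 0.072 and 0.076. All 4 rose, with changes of 1.35, 1.40, 1.46 and 1.36. The like direction and size follow from the choice, which used these same values, here and for Sox5. For Sox5 they were Chaf1a, a chromatin assembly factor of replicating DNA, Efcab11, Afmid, an enzyme of tryptophan breakdown, and Mms22l, which acts in the repair of stalled replication forks, at differences of 0.045, 0.049, 0.049 and 0.051. Their changes were -0.61, -0.63, -0.64 and -0.75, and only the last 2 passed (adjusted p = 0.0637, 0.0559, 0.0382 and 0.0377).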

How the data were processed

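Total RNA of 6 enterosphere cultures, 3 per group, was hybridised to 1 array each. The deposited values are log2 values that the authors made with RMA in Partek Software 6.6, after scanning with AGCC 3.0 and quality reports from Expression Console 1.0. The sources used here do not give a build. Groups and replicate numbers came from the labels. Genes were named from the platform's annotation, and the 9 symbols were the same in a gene table of GRCm38.p6. Where a gene had several clusters, that of the highest mean was taken. Differentiation and proliferation were compared by limma 3.58.1 (lmFit and eBayes under R 4.3.3, two-sided, Benjamini-Hochberg over 35556 clusters, no filter) and plotted with matplotlib 3.10.9. The methods speak of 3 independent experiments, but the labels do not tie samples to them, so p-values measure the spread between these samples.

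Members, 16 gene lists and tests were chosen with earlier results of these data known. Named were all members, Sox10, up to 4 called genes per list by size of change (or the largest change where none was called), flanking genes and the 4 genes most like each called member, and other genes of the lists named in the text were picked after their values had been seen. For markers of other cells counts are given in place of names. Some listed genes are not reported here. The scripts were first tested on simulated data. Array values carry no counts, so the number of arrays limits the precision. The 16 alternatives were array weights, a replicate block, limma-trend (robust), cyclic loess, median centring, bright clusters alone, clusters with 1 symbol alone, averaging a gene's clusters, each array left out, and the methods' t-test with its own thresholds and after adjustment.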

Additional observations from a re-analysis of the deposited data

How the results depend on the processing

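Olig1 rose under all 16 alternatives. The number of factors that rose was 1 throughout, except 4 with array weights, and lay between 1 and 2 with single arrays left out, where Olig2 was added without proliferation replicate 2. The number that fell was 2 with array weights, 0 with the replicate block, 0 after cyclic loess, 0 by the methods' t-test after adjustment, and lay between 0 and 1 with single arrays left out. Without proliferation replicate 2 it was 1, Sox9 in place of Sox5. Over the 9 factors 127 of 142 values kept their side of the threshold, 9 lost the call, all of them of Sox5, and 6 gained it, 4 of these with array weights. The signs of 2 uncalled values turned, -0.05 for Olig3 without differentiation replicate 3 and 0.13 for Sox8 without proliferation replicate 2. Array weights ran from 0.397 to 7.45 and called 12721 clusters instead of 1459.

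Same-numbered samples did not deviate together. The correlations of their deviations from the group means were -0.0030, 0.090 and -0.074, and although spheres were divided between both media, no label says that a number marks one culture. The correlations for differently numbered samples lay between -0.17 and 0.16, so they cannot settle whether same-numbered samples share a culture. The replicate block ties same-numbered samples, and it called 664 clusters. Olig3 and Nkx2-2 could not be tested among bright clusters alone, as their means lie below the median. How signal over background limits these 2 was not tested.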

Other observations

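Factors of Schwann cells, the myelinating glia of peripheral nerve, were a further list. It held 6 genes, of which 1 rose and 0 fell. At an unadjusted p under 0.05 in limma 2 were higher and 1 lower. Jun, a factor of immature and injured Schwann cells, rose by 0.72 (adjusted p = 0.0147), though not without proliferation replicate 3, nor without differentiation replicate 1 or 2 (the adjusted p lay between 0.0574 and 0.0803). Egr2, which drives peripheral myelination, lay between 8.34 and 9.20 in proliferation and between 9.13 and 9.43 in differentiation, and its change of 0.52 did not pass (adjusted p = 0.317). Pou3f1, a factor of promyelinating cells, had a change of -0.93 (adjusted p = 0.0738). Without proliferation replicate 1 both passed (adjusted p = 0.0474 and 0.0364), and without proliferation replicate 2 the change of Egr2 was 0.34.

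Of 7 smooth muscle markers 4 rose and 1 fell, but 2 rose without proliferation replicate 3 or differentiation replicate 1 and 0 fell without the latter. Of 6 neuronal markers 2 rose, 0 of them without proliferation replicate 1 or differentiation replicate 1 or 2, and 1 without proliferation replicate 3 or differentiation replicate 3. Of 3 markers of interstitial cells of Cajal, the gut's pacemaker cells, 1 fell, with 2 without proliferation replicate 2 and 0 without differentiation replicate 1. At an unadjusted p under 0.05 in limma, all 3 of these were lower. Their list means were 10.70 to 11.09 in proliferation and 10.06 to 10.23 in differentiation. By the same measure 5 smooth muscle markers were higher and 1 lower, and 3 neuronal markers were higher and 0 lower. In the endothelial (4), macrophage (5), epithelial (7) and mesothelial (3) lists none passed, and none had an unadjusted p under 0.05 from limma. The methods' t-test at its own thresholds called none of these either, while array weights called 1 gene higher in each of the endothelial, macrophage and epithelial lists.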
